A study of Mus musculus with 9 samples.

Results

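The collagen genes of the fetal mouse thymus were taken as every named transcript cluster whose symbol has the form Col, a number, a and a number. This gave 42 genes among 22206 transcript clusters, of which 19572 carried a gene symbol. No collagen symbol had more than 1 cluster, so no choice between clusters was needed. By the structure of the molecules they form, 11 genes were fibrillar, 6 belonged to the basement membrane collagen type IV, 6 to the beaded filament collagen type VI, and 19 were of other kinds. Total RNA of thymic lobes of embryos at day e13.5 had been hybridised to Affymetrix Clariom S arrays, 9 in all, each read as 1 value per transcript cluster on a log2 scale. The mice were of strain C57BL/6. There were 3 arrays each from wild type embryos, from Foxn1933/1089 embryos, which carry a different mutant allele on each copy of Foxn1, and from Tbx1neo2/neo2 embryos, homozygous for neo2, a hypomorphic allele of Tbx1. Foxn1 encodes the transcription factor that drives thymic epithelial differentiation, and Tbx1 a T-box factor needed for the pharyngeal pouches. Whether the 3 samples of each genotype are separate embryos, litters or pools is not stated in the labels, so the tests measure the spread between these samples.

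Collagens are the main structural proteins of the extracellular matrix. Their chains wind around each other into stiff helices. The fibrillar types pack side by side into the fibrils that give connective tissue its strength. Type IV forms the flexible sheet under epithelia and around blood vessels. Type VI makes thin beaded filaments near cells, and several smaller types coat fibrils, span membranes or sit in basement membranes. In the fetal thymus a capsule and septa of neural crest-derived mesenchyme surround and enter an epithelial core. Fibrillar and type VI collagens are typical products of that mesenchyme, and type IV collagen lines the epithelium and the vessels.

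Promoter sequence is shown for Col1a2 and Col3a1, whose values in the mutants are described below. For Col4a1 and Col4a2, which lie on opposite strands, the stretch shown is where their annotated starts overlap. The sequences come from RefSeq on build GRCm38.p6, and 34 of the 42 genes had an entry. Each of the first pair covers the 250 bases before the annotated start on the plus strand, Col1a2 at chr6:4505368-4505617 and Col3a1 at chr1:45311288-45311537. The third runs from the annotated start of Col4a2 to that of Col4a1, 22 bases at chr8:11312805-11312826 on the plus strand. These bases follow both starts, so they lie within both annotated transcripts and not upstream of either. Capitals mark, on either strand, the CCAAT box letters CCAAT, the GC box letters GGGCGG and the TATA box letters TATAAA.
Col1a2: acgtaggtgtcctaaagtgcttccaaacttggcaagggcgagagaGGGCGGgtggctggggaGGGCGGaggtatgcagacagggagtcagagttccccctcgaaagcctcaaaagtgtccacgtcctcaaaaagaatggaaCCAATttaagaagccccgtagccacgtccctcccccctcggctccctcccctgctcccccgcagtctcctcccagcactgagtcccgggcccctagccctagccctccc
Col3a1: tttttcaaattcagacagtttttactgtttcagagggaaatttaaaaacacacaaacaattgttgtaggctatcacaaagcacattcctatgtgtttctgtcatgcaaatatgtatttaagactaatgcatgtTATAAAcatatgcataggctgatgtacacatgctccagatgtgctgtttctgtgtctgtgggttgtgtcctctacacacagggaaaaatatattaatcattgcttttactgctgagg
Col4a2 to Col4a1: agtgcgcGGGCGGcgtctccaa

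The Col1a2 window held CCAAT at 109 bases and GGGCGG at 205 and 188 bases before the start. In the Col3a1 window TATAAA lay 117 bases before the start, and the 22 bases shared by the type IV genes held GGGCGG. Of 32851 mouse promoter windows of the same length, 33.8% held CCAAT, 32.7% GGGCGG and 12.4% TATAAA on either strand. Of the 37 windows of the collagen genes, 12, 21 and 5 did. These matches describe the letters in the windows and are not measured binding sites.

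Several whole-series facts bear on every value below. For neither mutated gene were the mutant arrays apart from the others. Foxn1 read 8.73 to 9.67 on its mutant arrays and 7.78 to 10.35 on the rest, and Tbx1 read 4.80 to 5.38 on its mutant arrays and 4.07 to 5.85 on the rest. Where their features lie relative to the mutations is not stated, so these values do not check the labels. Array medians lay between 5.09 and 5.20. Wild type replicate 1 and Foxn1 mutant replicate 2 stood apart: Prss16, a protease of the thymic cortical epithelium, read 4.24 and 4.45 on them and 13.87 to 14.43 on the other 7 arrays. On wild type replicate 1 the mean of 6 neuron markers was 12.59, against 5.93 to 6.33 elsewhere. On Foxn1 mutant replicate 2 the mean of 6 heart muscle markers was 7.70, against 4.22 to 5.79. Uty, a gene of the Y chromosome, read 7.56 to 8.84 on the 3 wild type arrays and 2.47 to 3.71 on the 3 Foxn1 mutant arrays, so sex and genotype cannot be told apart in that comparison. Among the Tbx1 mutants, Uty read 8.47, 3.45 and 3.66. In bulk tissue, fewer cells of a type and less RNA per cell cannot be told apart. The titles of the samples end in 1 of 3 codes that look like dates and are named A, B and C in what follows, with no statement of what was dated. Code A holds 1 array of each genotype, B holds 1 wild type and 2 Foxn1 mutant arrays, and C holds 1 wild type and 2 Tbx1 mutant arrays. The wild type arrays of A, B and C are replicates 3, 2 and 1. In A the Foxn1 mutant array is replicate 2 and the Tbx1 mutant array is replicate 1. So both arrays that stood apart enter the values within codes: Foxn1 mutant replicate 2 within A, and wild type replicate 1 within C.

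An array read a gene as above background when its value exceeded the median of that array's negative control features, which lay between 4.27 and 4.94. By this measure 22 of the 42 collagen genes were above background on all 9 arrays, 13 on some and 7 on none. The 7 were Col5a3, Col4a3, Col6a5, Col19a1, Col10a1, Col8a1 and Col17a1, which include a chain of the kidney and lung basement membrane (Col4a3), the hypertrophic cartilage collagen (Col10a1) and a hemidesmosome collagen (Col17a1). Against the 95th percentile of the negative controls, 8.03 to 9.70, only Col1a1, Col3a1 and Col18a1 were above on all 9 arrays. Col1a2, Col5a1, Col16a1, Col23a1 and Col26a1 were above it on 3, 4, 2, 4 and 6 arrays, and the other 34 genes on none. The 3 genes that mark the group, Col1a1, Col3a1 and Col6a3, were above the median of the negative controls on every array.

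No collagen gene passed the test in any of the 3 comparisons. The test was limma's moderated test with Benjamini-Hochberg adjustment over all 22206 clusters, at an adjusted p under 0.05. The share of all clusters called was 0% for the Foxn1 mutant against wild type, 0.0135% for the Tbx1 mutant against wild type and 0% for the Foxn1 against the Tbx1 mutant. The lowest adjusted p of any collagen gene in limma was 1.00, 1.00 and 0.999 in that order. An exact permutation test of 3 against 3 cannot go below 0.1. The differences below are therefore sizes with their standard errors, none of them past the threshold. Both mutants were set against the same 3 wild type arrays, so their differences share whatever those arrays hold.

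The largest mean differences from wild type among the collagens were those of fibrillar genes of connective tissue, Col1a1 in the Tbx1 mutant and Col3a1 in the Foxn1 mutant, both toward higher values. Col1a1, which encodes the main chain of type I collagen, read 11.96, 11.09 and 11.77 in wild type, 12.14, 13.40 and 11.88 in Foxn1 mutants, and 13.14, 12.60 and 13.36 in Tbx1 mutants. All 3 Tbx1 mutant arrays were above all 3 wild type arrays, while the lowest Foxn1 mutant array was below the highest wild type array. The means were 11.61 ± 0.46 (SD, n = 3), 12.47 ± 0.82 and 13.03 ± 0.39. The Tbx1 mutant mean exceeded wild type by 1.43 ± 0.41 (SE) on the log2 scale, or 2.69-fold. For the Foxn1 mutant the difference was 0.86 ± 0.41, and without Foxn1 mutant replicate 2 it was 0.40. Within date code A, whose Foxn1 mutant array is that same replicate 2, the 2 differences were 1.37 for Tbx1 and 1.63 for Foxn1. Within code C, whose wild type array is replicate 1, the Tbx1 difference was 1.02. Within code B the Foxn1 difference was 0.91.

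Col1a2, the other chain of type I collagen, followed Col1a1 from array to array. It read 7.82, 7.04 and 7.79 in wild type, 8.09, 9.42 and 7.76 in Foxn1 mutants, and 8.83, 8.56 and 9.04 in Tbx1 mutants. Again the Tbx1 mutant arrays lay apart from wild type and the Foxn1 mutant arrays overlapped them. The Tbx1 difference was 1.26 ± 0.41 (SE) and the Foxn1 difference 0.87 ± 0.41. Without Foxn1 mutant replicate 2 the Foxn1 difference was 0.38.

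Col3a1, the single chain of type III collagen, which is typical of loose and fetal connective tissue, was the only fibrillar gene whose wild type arrays lay below all arrays of both mutants. It read 10.53, 10.72 and 11.11 in wild type, 11.54, 12.53 and 11.53 in Foxn1 mutants, and 11.90, 11.66 and 11.93 in Tbx1 mutants. The mean was 10.79 ± 0.30 (SD, n = 3) in wild type, 11.87 ± 0.58 in the Foxn1 mutant and 11.83 ± 0.15 in the Tbx1 mutant. The Foxn1 difference was 1.08 ± 0.30 (SE), or 2.12-fold, and the Tbx1 difference 1.04 ± 0.30, or 2.06-fold. When each array was left out in turn, the Foxn1 difference ran from 0.75 to 1.25 and the Tbx1 difference from 0.91 to 1.20. Within date codes A and B the Foxn1 difference was 1.42 and 0.81, where the array of A is Foxn1 mutant replicate 2. Within A and C the Tbx1 difference was 0.79 and 1.27, where the wild type array of C is replicate 1.

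Type V collagen, which starts fibrils and limits their width, is made from Col5a1, Col5a2 and Col5a3. Col5a1 read 7.82, 7.66 and 8.07 in wild type, 8.37, 9.71 and 7.92 in Foxn1 mutants, and 9.02, 8.39 and 8.66 in Tbx1 mutants. Its mean was higher by 0.82 ± 0.41 (SE) in the Foxn1 mutant, 0.29 without Foxn1 mutant replicate 2, and by 0.84 ± 0.41 in the Tbx1 mutant. Col5a2 read 4.46, 5.07 and 4.87 in wild type, 4.97, 5.92 and 5.14 in Foxn1 mutants, and 5.48, 5.60 and 5.96 in Tbx1 mutants. Wild type replicate 1 was the only array on which it was not above background. Both genes were above every wild type array on all 3 Tbx1 mutant arrays, and in the Foxn1 mutant each overlapped wild type. The Col5a2 differences were 0.55 ± 0.29 and 0.88 ± 0.29, in the same order. Col5a3 stayed at 3.04 to 3.59, below background on all 9 arrays.

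Col27a1, a fibrillar collagen best known from cartilage, read 5.19, 4.70 and 4.37 in wild type, 5.13, 5.50 and 4.79 in Foxn1 mutants, and 5.60, 5.44 and 5.44 in Tbx1 mutants. The Tbx1 mutant arrays were all above wild type, with a mean difference of 0.74 ± 0.26 (SE). For the Foxn1 mutant the difference was 0.38 ± 0.26, with overlapping arrays. The remaining fibrillar genes are largely cartilage or minor chains. Col11a1 was above background on all arrays, at 4.88 to 5.92, with differences of 0.23 ± 0.30 in the Foxn1 mutant and 0.35 ± 0.30 in the Tbx1 mutant. Col11a2 was too, at 4.70 to 5.75, with differences of -0.37 ± 0.25 and -0.15 ± 0.25. Col24a1 was above background on 3 arrays. Col2a1, the main collagen of cartilage, was above background on wild type replicate 2 alone, where it read 4.57.

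**Figure D1:**
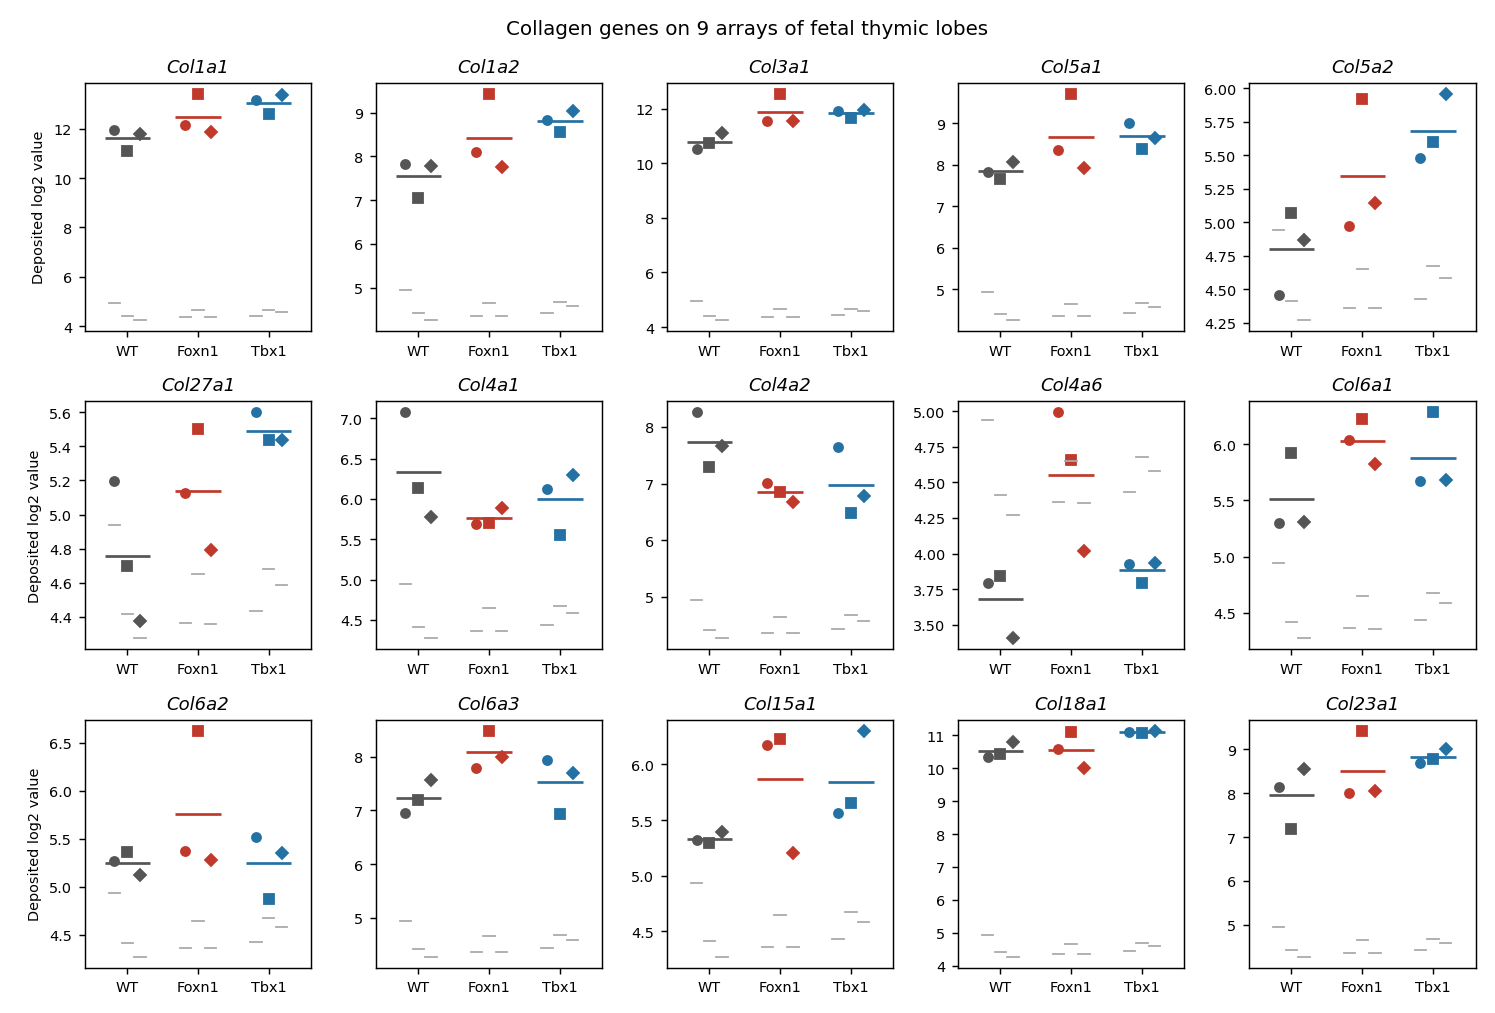
Log2 values of selected collagen genes on each array, by genotype. Each point is 1 array, with circle, square and diamond for replicates 1, 2 and 3, horizontal lines are the means of 3, grey ticks are each array's negative control median, and the y axes differ between panels. The 3 Tbx1 mutant points of Col1a1 lie between 12.60 and 13.36, above the wild type points at 11.09 to 11.96, and those of Col3a1 lie above wild type in both mutants.

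Over the 11 fibrillar genes, the mean was higher than wild type for 9 in the Foxn1 mutant and for 8 in the Tbx1 mutant, and the median differences were 0.38 and 0.74. Over all 22206 clusters the medians were 0.018 and 0.015. On all 3 Tbx1 mutant arrays 6 of the 11 were above all wild type arrays, namely Col1a1, Col1a2, Col3a1, Col5a1, Col5a2 and Col27a1, and in the Foxn1 mutant 1 was, Col3a1. Of all clusters, 5.18% were so placed in the Tbx1 mutant and 4.86% in the Foxn1 mutant. Without Foxn1 mutant replicate 2, the Foxn1 median was 0.26, and without wild type replicate 3 it was 0.25. Without Foxn1 mutant replicate 2 and wild type replicate 1 together, the Foxn1 median was 0.28 and the Tbx1 median 0.71.

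Of the 6 basement membrane genes, 3 had a higher mean in the Foxn1 mutant and 4 in the Tbx1 mutant. Col4a1 and Col4a2, the chains of the type IV collagen found in almost every basement membrane, had lower means in both mutants. Col4a2 read 8.26, 7.29 and 7.67 in wild type, 7.01, 6.85 and 6.67 in Foxn1 mutants, and 7.65, 6.48 and 6.78 in Tbx1 mutants. All Foxn1 mutant arrays were below all wild type arrays, and Tbx1 mutant replicate 1 lay within the wild type values. The mean was 7.74 ± 0.49 (SD, n = 3) in wild type, 6.85 ± 0.17 in the Foxn1 mutant and 6.97 ± 0.61 in the Tbx1 mutant. The differences were -0.89 ± 0.34 (SE) for Foxn1 and -0.77 ± 0.34 for Tbx1. Without wild type replicate 1 they were -0.64 and -0.51. Within date codes A and B the Foxn1 difference was -0.82 and -0.45. The Tbx1 difference was -0.01 within code A and -1.63 within code C, whose wild type array is replicate 1.

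Col4a1 read 7.07, 6.14 and 5.78 in wild type, 5.68, 5.70 and 5.89 in Foxn1 mutants, and 6.12, 5.56 and 6.30 in Tbx1 mutants. Wild type replicate 1 was the highest array for both genes. The Col4a1 differences were -0.57 ± 0.34 (SE) for Foxn1 and -0.34 ± 0.34 for Tbx1, and without wild type replicate 1 they were -0.20 and 0.03. Blood vessels are another source of type IV collagen, and their part in these values was not tested. Of 8 endothelial marker genes, 7 had a higher mean in the Foxn1 mutant and 8 in the Tbx1 mutant. Without wild type replicate 1 the Foxn1 and Tbx1 differences were -0.22 and -0.004 for Pecam1 and -0.30 and -0.72 for Erg. For Cldn5 they stayed positive, at 0.44 and 0.40.

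The chains of the more specialised type IV collagens were near background. Col4a6, a chain of some epithelial and muscle basement membranes, read 3.79, 3.84 and 3.41 in wild type, 4.99, 4.65 and 4.02 in Foxn1 mutants, and 3.93, 3.79 and 3.93 in Tbx1 mutants. The Foxn1 mutant arrays were above all others, but only replicates 1 and 2 exceeded background, and on replicate 2 value and background were both 4.65 after rounding. The measured difference was 0.87 ± 0.27 (SE). Because no wild type array was above background, the ratio is given as at least 1.01-fold, with the negative control median of each wild type array in place of its value. Its promoter partner Col4a5 was above background on 2 arrays and Col4a4 on 1, and Col4a3 on none. Over the 6 type IV genes the Foxn1 median was -0.05 and the Tbx1 median 0.11. The Foxn1 median was 0.003 when each array was centred on its median. The Tbx1 median was -0.01 without Tbx1 mutant replicate 1, 0.04 without wild type replicate 3 and 0.20 without Tbx1 mutant replicate 3.

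Of the 6 type VI genes, 5 had a higher mean in the Foxn1 mutant than in wild type and 4 in the Tbx1 mutant. Col6a3, the long chain of the beaded filament, read 6.95, 7.20 and 7.56 in wild type, 7.79, 8.48 and 7.99 in Foxn1 mutants, and 7.93, 6.94 and 7.70 in Tbx1 mutants. All Foxn1 mutant arrays were above wild type, and the Tbx1 mutant arrays overlapped both. The differences were 0.85 ± 0.31 (SE), or 1.81-fold, for Foxn1 and 0.29 ± 0.31 for Tbx1. Without Foxn1 mutant replicate 2 the Foxn1 difference was 0.65, and without wild type replicate 1 as well it was 0.51. Within date codes A and B it was 0.92 and 0.69, where the array of A is Foxn1 mutant replicate 2.

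Col6a1 and Col6a2 encode the short chains that join Col6a3 in the filament. Col6a1 read 5.30, 5.93 and 5.31 in wild type, 6.03, 6.23 and 5.83 in Foxn1 mutants, and 5.67, 6.28 and 5.68 in Tbx1 mutants. Col6a2 read 5.27, 5.36 and 5.12 in wild type, 5.37, 6.63 and 5.28 in Foxn1 mutants, and 5.52, 4.87 and 5.35 in Tbx1 mutants. Wild type and Foxn1 mutant arrays overlapped for both, and the high Col6a2 value was that of Foxn1 mutant replicate 2 alone. The Foxn1 differences were 0.52 ± 0.26 (SE) and 0.51 ± 0.35. Within date code B they were 0.01 for Col6a1 and -0.04 for Col6a2. Tbx1 differences were 0.37 ± 0.26 and -0.01 ± 0.35.

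Col6a6, one of the alternative long chains, varied most of the 42 genes across arrays, over 2.72 log2 units from 6.16 on wild type replicate 2 to 8.88 on Foxn1 mutant replicate 2. Its differences were 0.73 ± 0.56 (SE) for Foxn1 and 0.60 ± 0.56 for Tbx1, with overlapping arrays. The Foxn1 difference was 0.15 without Foxn1 mutant replicate 2 and 1.24 without wild type replicate 1. The Tbx1 difference was 0.18 without wild type replicate 2 and 1.12 without wild type replicate 1. Col6a4 was above background on 5 arrays and Col6a5 on none. Over the 6 type VI genes the median difference was 0.51 for Foxn1 and 0.30 for Tbx1. Without Foxn1 mutant replicate 2 the Foxn1 median was 0.20. The Tbx1 median was 0.14 without Tbx1 mutant replicate 1, 0.20 without wild type replicate 1 and 0.19 without wild type replicate 3.

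The other 19 collagens include those that decorate fibrils, those of basement membrane zones with long side chains, and those that span the cell membrane. All 19 had a higher mean in the Tbx1 mutant than in wild type, by 0.025 to 0.87, and 14 had one in the Foxn1 mutant. Of all clusters, 52.2% and 52.4% did. The 19 include 4 genes above background on no array, Col19a1, Col10a1, Col8a1 and Col17a1, whose signs carry little meaning. With the date code as a fixed block the Tbx1 differences of Col17a1, Col26a1 and Col28a1 were -0.08, -0.30 and -0.10. The median difference was 0.22 for Tbx1 and 0.12 for Foxn1. The Foxn1 median was -0.05 without Foxn1 mutant replicate 2, 0.006 without wild type replicate 3, 0.36 without wild type replicate 1 and 0.24 without Foxn1 mutant replicate 3. Without wild type replicate 1 the Tbx1 median was 0.38. Of the 19 genes, 14 kept the sign of their Tbx1 difference and 5 that of their Foxn1 difference whichever single array was left out. Col18a1, whose protein carries heparan sulfate in basement membranes and yields endostatin, read 10.33, 10.43 and 10.80 in wild type, 10.59, 11.11 and 10.01 in Foxn1 mutants, and 11.11, 11.08 and 11.14 in Tbx1 mutants. The Tbx1 mutant arrays were all above wild type and close to each other, with a difference of 0.58 ± 0.28 (SE). The Foxn1 mutant arrays spanned the wild type values, with a difference of 0.05 ± 0.28.

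Col15a1, the close relative of Col18a1, read 5.32, 5.29 and 5.39 in wild type, 6.17, 6.23 and 5.21 in Foxn1 mutants, and 5.56, 5.66 and 6.30 in Tbx1 mutants. The Foxn1 mutant had 2 arrays above wild type and 1 below, and the differences were 0.54 ± 0.31 (SE) and 0.51 ± 0.31. Col23a1, a transmembrane collagen, read 8.14, 7.18 and 8.55 in wild type, 8.02, 9.42 and 8.05 in Foxn1 mutants, and 8.69, 8.78 and 9.0 in Tbx1 mutants. Both genes were above every wild type array on all 3 Tbx1 mutant arrays. For Col23a1 the Tbx1 difference was 0.87 ± 0.44, and 0.48 without wild type replicate 2. Its Foxn1 difference was 0.54 ± 0.44, and 0.08 without Foxn1 mutant replicate 2.

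Col16a1, a fibril-associated collagen, read 8.80, 7.30 and 7.82 in wild type, 8.12, 9.32 and 7.81 in Foxn1 mutants, and 8.89, 8.44 and 8.76 in Tbx1 mutants. Col26a1 read 8.88, 8.40 and 9.43 in wild type, 8.66, 10.81 and 8.93 in Foxn1 mutants, and 8.61, 8.79 and 9.76 in Tbx1 mutants. Groups overlapped for both, and Foxn1 mutant replicate 2 was the highest array for both. Col9a2, a chain of the cartilage fibril-associated type IX, had a Tbx1 difference of 0.45 ± 0.26 (SE), but was above background on 5 arrays. Its partners Col9a1 and Col9a3 were above background on all 9, with Tbx1 differences of 0.28 ± 0.31 and 0.22 ± 0.27. Col20a1 and Col28a1 were also above background on all 9, and Col13a1 on 8. Col22a1 and Col25a1 were above it on 5 arrays each, and Col14a1 and Col8a2 on 1 each. For these last 7 genes the differences from wild type lay between -0.03 and 0.37.

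**Figure D2:**
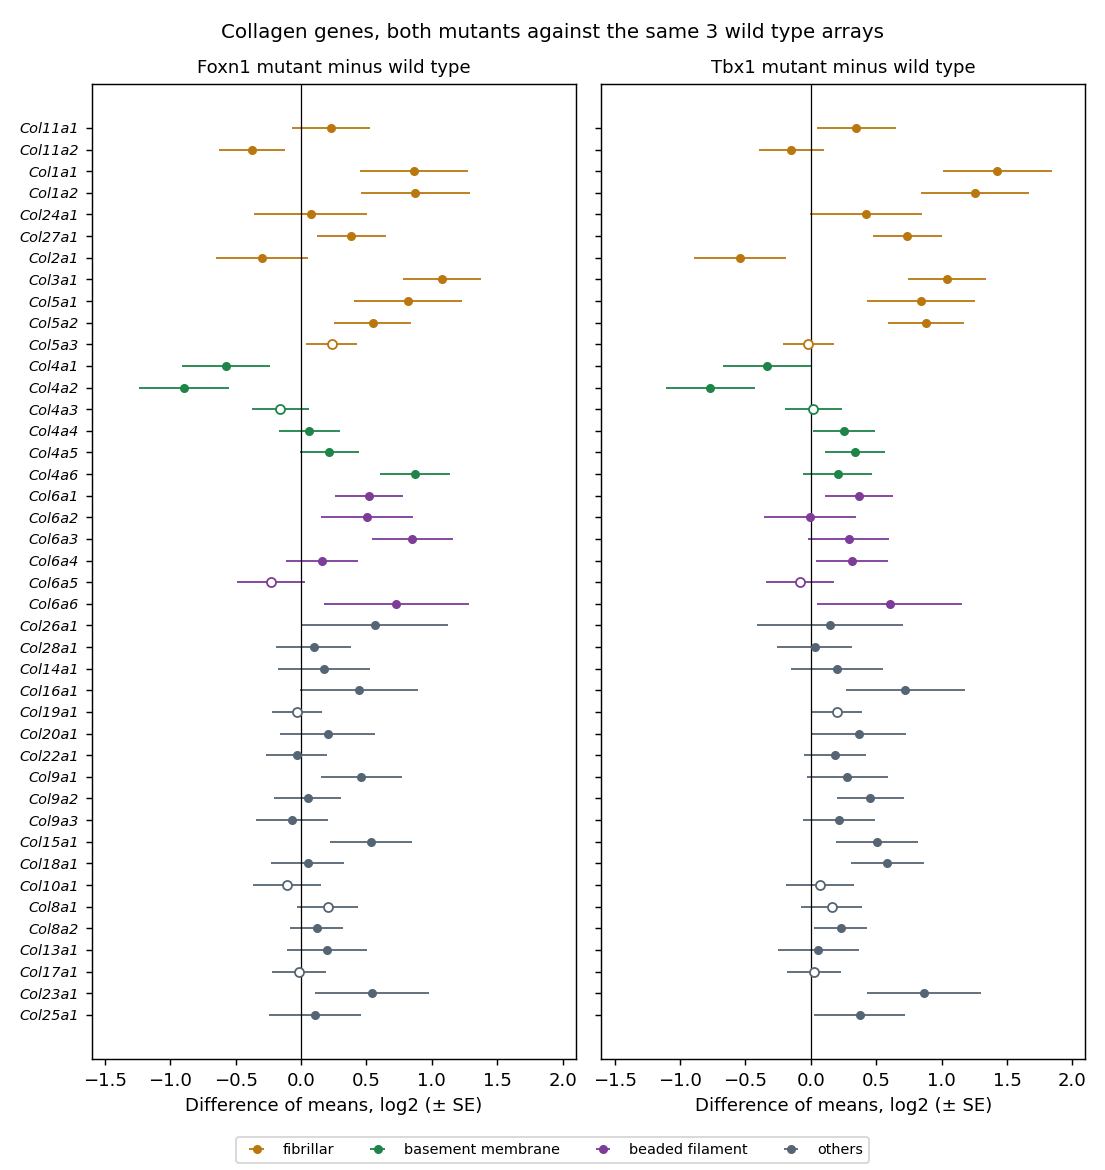
Difference from wild type of each of the 42 collagen genes in the Foxn1 mutant (left) and the Tbx1 mutant (right), on the log2 scale, with bars of 1 standard error from limma. Colours give the class and hollow points are the 7 genes above background on no array. In the Tbx1 panel Col1a1 lies farthest right at 1.43 and Col4a2 farthest left at -0.77.

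Over the 42 genes, 31 had a higher mean in the Foxn1 mutant than in wild type, with a median difference of 0.20, and 35 had one in the Tbx1 mutant, with a median of 0.27. Of all clusters, 52.4% and 52.2% were higher. In the Foxn1 mutant, 4 collagen genes (9.52%) had every array above every wild type array, against 4.86% of all clusters. These were Col3a1, Col4a6, Col6a3 and Col8a1, the last below background throughout. Col4a2 alone (2.38%) was apart in the lower direction, against 3.43% of all clusters. In the Tbx1 mutant, 9 genes (21.4%) were apart above wild type, against 5.18% of all clusters, and 0 below, against 4.27%. The 9 were the 6 fibrillar genes named above with Col15a1, Col18a1 and Col23a1.

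At an unadjusted p under 0.05 in limma, Col3a1, Col4a6 and Col6a3 were higher in the Foxn1 mutant (7.14%, against 2.28% of all clusters) and Col4a2 was lower (2.38%, against 1.77%). In the Tbx1 mutant Col1a1, Col1a2, Col3a1, Col5a2 and Col27a1 were higher (11.9%, against 1.97%) and Col4a2 was lower (2.38%, against 1.82%). With the date code as a fixed block the counts of higher genes were 10 for Foxn1 (23.8%, against 3.49% of all clusters in that fit) and 4 for Tbx1 (9.52%, against 3.67%). No collagen gene, Col4a2 included, was then lower at that level in either mutant, against 2.24% and 5.04% of all clusters. The only Foxn1 mutant array of code A is replicate 2, and the block was not fitted without that array. With no block, the Foxn1 count of higher genes was 8 without Foxn1 mutant replicate 3, 5 without wild type replicate 1 and 2 without Foxn1 mutant replicate 2. For Tbx1 it was 8 without Foxn1 mutant replicate 2 and also when only the groups compared were fitted. Both of those fits leave the Tbx1 differences themselves unchanged. The Tbx1 count was 4 without wild type replicate 2 and also without Tbx1 mutant replicate 3. Col4a2 was not lower at that level without wild type replicate 1 in either mutant. Of the 9 fits that each left out 1 array, it was lower at that level in 6 for Foxn1 and 2 for Tbx1. Its unadjusted p for Tbx1 on all arrays was 0.0499 in limma. With quantile normalization or median centring it was not under 0.05 for Tbx1. Without Foxn1 mutant replicate 2 only 24 of the 42 genes had a higher mean in the Foxn1 mutant, and the median over all 42 was 0.07. Without that array and wild type replicate 1 together, the Foxn1 median was 0.17 and the Tbx1 median 0.30. In that fit the lowest adjusted p of a collagen gene in limma was 0.252, for Col1a1 in the Tbx1 mutant, with a difference of 1.60.

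The mutants were also compared with each other directly, which leaves the wild type arrays out of the difference. Of the 42 genes, 14 had a higher mean in the Foxn1 than in the Tbx1 mutant and 28 a lower one, with a median of -0.14. Over all clusters the median was 0.008 and 51.3% were higher. Col1a1 differed by -0.56 ± 0.41 (SE), and by -1.03 without Foxn1 mutant replicate 2. Col3a1 differed by 0.04 ± 0.30, Col5a1 by -0.03 ± 0.41 and Col6a3 by 0.56 ± 0.31, each with overlapping arrays. Col18a1 differed by -0.53 ± 0.28, and by -0.81 without Foxn1 mutant replicate 2.

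Only Col4a6, higher in the Foxn1 mutant by 0.67 ± 0.27 (SE), had an unadjusted p under 0.05 in limma (2.38% of the collagen genes, against 1.68% of all clusters). No collagen gene had one in the lower direction, against 1.29% of all clusters. Col4a6 and Col5a3 were apart in the higher direction (4.76%, against 5% of all clusters) and 0 in the lower, against 3.91%. No array of the Tbx1 mutant was above background for either gene. With the date code as a fixed block the median over the 42 genes was 0.11, and 27 were higher in the Foxn1 mutant. Only code A holds arrays of both mutants, and its Foxn1 mutant array is replicate 2. With no block and without that array the median was -0.25.

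The arrays within a genotype were not alike. Foxn1 mutant replicate 2, 1 of the 2 arrays with low thymic epithelial values, was the highest of the 9 arrays for 13 of the 42 genes (31%), while it was the highest for 14.2% of all clusters. The 13 included Col1a1, Col1a2, Col3a1, Col5a1, Col6a2, Col6a3 and Col6a6. Tbx1 mutant replicates 1 and 3 were the highest for 9 and 8 genes. Wild type replicates 2 and 3 were the lowest array for 11 genes each. When each gene's mean over the 9 arrays was subtracted, the median over the 11 fibrillar genes was -0.41, -0.37 and -0.34 on the wild type arrays. In the Foxn1 mutant it was -0.17, 0.54 and -0.13, and in the Tbx1 mutant 0.21, 0.23 and 0.43. So all Tbx1 mutant arrays lay above the average and all wild type arrays below it, and the Foxn1 mutant was split.

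**Figure D3:**
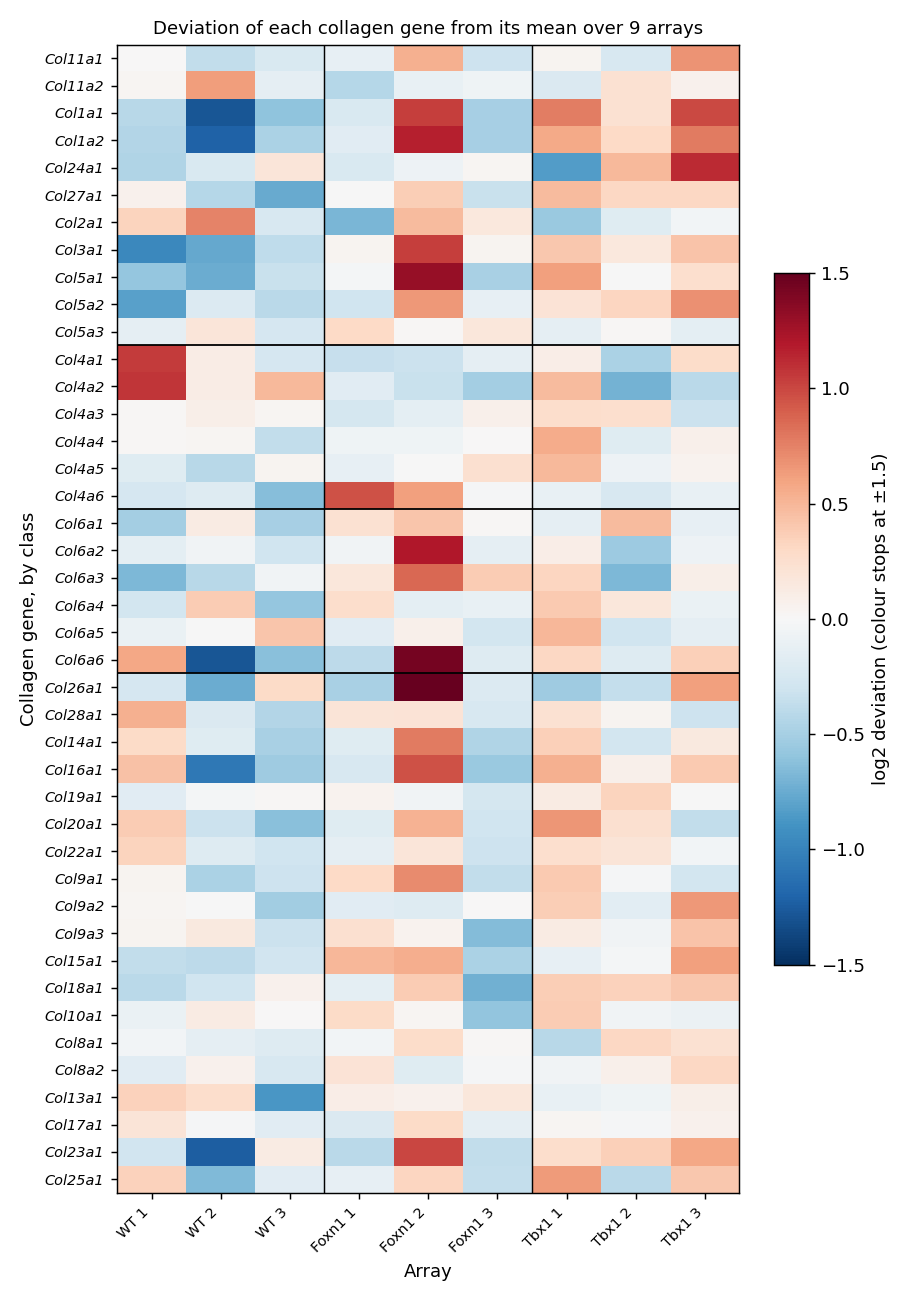
Deviation of each collagen gene on each array from that gene's mean over the 9 arrays, on the log2 scale, with genes in rows by class and arrays in columns by genotype. Red is above and blue below the gene's mean, and the colour stops at 1.5 in either direction. The column of Foxn1 mutant replicate 2 holds the highest value for 13 genes, and the wild type columns are mostly blue for the fibrillar genes.

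Genes whose chains build the same molecule were set side by side by these deviations. Col1a1 and Col1a2 were on the same side of their means on 9 of 9 arrays and never more than 0.21 apart, over ranges of 2.31 and 2.38. Col4a1 and Col4a2, whose annotated transcripts overlap by 22 bases at their starts, were on the same side on 7 of 9 arrays. They were up to 0.73 apart, on wild type replicate 3. Col6a1 and Col6a3 were on the same side on 5 arrays and up to 1.15 apart, and Col6a2 and Col6a3 on 6 and up to 0.52. Col6a1 and Col6a2 were on the same side on 4 arrays. They were up to 1.03 apart, on Tbx1 mutant replicate 2, where Col6a1 had its highest and Col6a2 its lowest value. The pairs Col4a3 with Col4a4 and Col4a5 with Col4a6, each a head-to-head pair, were near background, on the same side on 6 and 3 arrays.

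**Figure D4:**
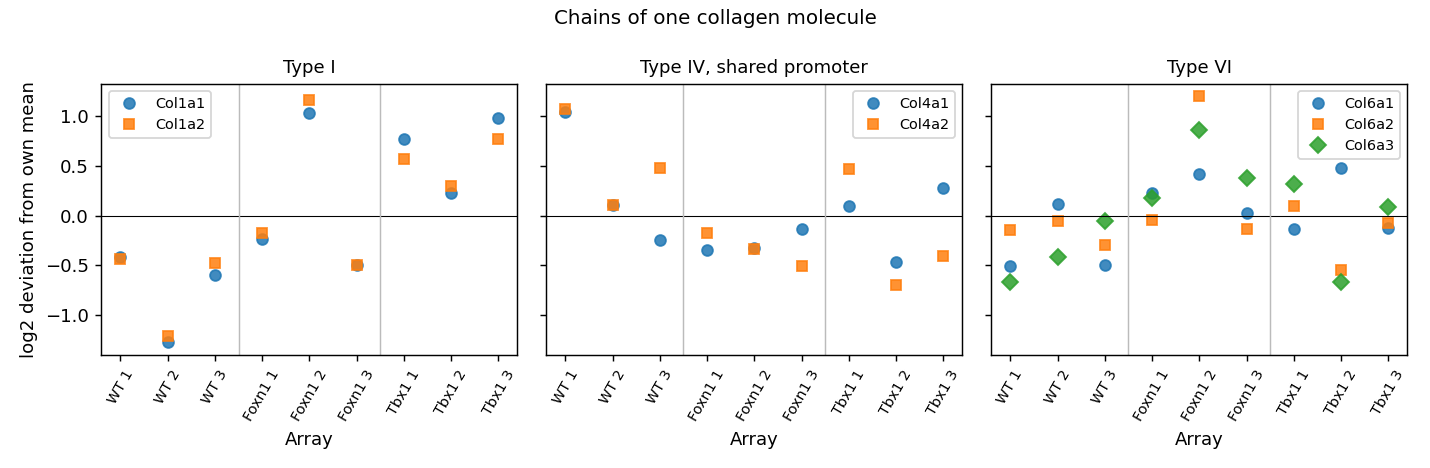
Deviation of each gene from its own mean over the 9 arrays, on the log2 scale, for genes whose chains join in 1 molecule. Each point is 1 gene on 1 array, grey vertical lines part the genotypes, and array order carries no meaning. The Col1a1 and Col1a2 points lie within 0.21 of each other on every array, while Col6a1 and Col6a2 are 1.03 apart on Tbx1 mutant replicate 2.

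A collagen chain is hydroxylated and folded inside the cell, trimmed at its ends outside it and cross-linked in the fibril. Genes of these steps were taken from lists, and none passed the test in any comparison. Of 17 measured modification and folding genes, 13 had a higher mean in the Foxn1 mutant and 12 in the Tbx1 mutant, with medians of 0.36 and 0.12. The other 4 and 5 were lower. Over all clusters 52.4% and 52.2% were higher. P3h2, lower in both mutants, had differences of -0.20 ± 0.56 (SE) and -0.91 ± 0.56, with overlapping arrays. Fkbp14, a prolyl isomerase of the endoplasmic reticulum that assists collagen folding, read 7.21, 6.86 and 7.23 in wild type, 7.73, 8.40 and 8.07 in Foxn1 mutants, and 8.08, 7.63 and 8.37 in Tbx1 mutants. All mutant arrays were above all wild type arrays, with differences of 0.97 ± 0.26 (SE) and 0.93 ± 0.26. Plod1, a lysyl hydroxylase that prepares collagen for cross-linking, read 7.02, 6.50 and 7.03 in wild type, 7.62, 8.02 and 7.56 in Foxn1 mutants, and 7.20, 6.83 and 6.89 in Tbx1 mutants. Here only the Foxn1 mutant lay apart, by 0.88 ± 0.23 from wild type and 0.76 ± 0.23 from the Tbx1 mutant.

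Among 7 genes of procollagen trimming, 5 had a higher mean in the Foxn1 mutant and 7 in the Tbx1 mutant, with medians of 0.31 and 0.45. These counts include Tll1 and Adamts14, above background on no array, and Tll2, above it on 2. The Tbx1 difference of Pcolce2 was 1.37, and -0.25 without wild type replicate 1. Pcolce, which enhances removal of the C-terminal propeptide of fibrillar collagens, read 8.98, 9.29 and 9.76 in wild type, 9.41, 10.88 and 9.65 in Foxn1 mutants, and 10.86, 9.94 and 10.70 in Tbx1 mutants. The Tbx1 mutant arrays were all above wild type, by 1.16 ± 0.41 (SE) on average. All 4 measured genes of the lysyl oxidase family, the cross-linking enzymes, had a higher mean in both mutants, with medians of 0.55 and 0.91. Of these, Loxl4 was above background on no array. The Foxn1 difference of Lox was 0.37, and 0.02 without Foxn1 mutant replicate 2. Loxl1 read 8.23, 7.31 and 7.96 in wild type, 8.60, 10.42 and 8.56 in Foxn1 mutants, and 10.27, 8.62 and 9.88 in Tbx1 mutants. Its mutant arrays were all above wild type, with differences of 1.36 ± 0.57 for Foxn1 and 1.76 ± 0.57 for Tbx1. Without Foxn1 mutant replicate 2 the Foxn1 difference was 0.75. Loxl3 read 9.37, 8.46 and 9.42 in wild type and 10.13, 9.70 and 10.36 in the Tbx1 mutant, a difference of 0.98 ± 0.33. Its Foxn1 difference was 0.73 ± 0.33, or 0.42 without wild type replicate 2.

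Cell surface receptors for collagen, and the enzymes and inhibitors of collagen breakdown, were listed as well. Of 8 measured receptors, 5 had a higher mean in each mutant, with medians of 0.09 and 0.21. Itga2, the alpha chain of a collagen-binding integrin, had differences of -0.65 ± 0.30 (SE) and -0.44 ± 0.30. Of 9 breakdown genes, 6 were higher in the Foxn1 and 4 in the Tbx1 mutant, with medians of 0.16 and -0.10. Mmp2, a gelatinase, read 12.32, 10.89 and 11.56 in wild type, 11.76, 13.83 and 11.25 in Foxn1 mutants, and 13.20, 11.92 and 12.44 in Tbx1 mutants. The groups overlapped, and the highest array was Foxn1 mutant replicate 2. The Mmp2 difference was 0.69 ± 0.65 for Foxn1, or -0.08 without that array, and 0.93 ± 0.65 for Tbx1, or 0.58 without wild type replicate 2. Mmp14, a membrane-bound collagenase, had a Foxn1 difference of 0.63 ± 0.31, or 0.30 without Foxn1 mutant replicate 2. Its Tbx1 difference was 0.47 ± 0.31, or 0.30 without wild type replicate 2.

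**Figure D5:**
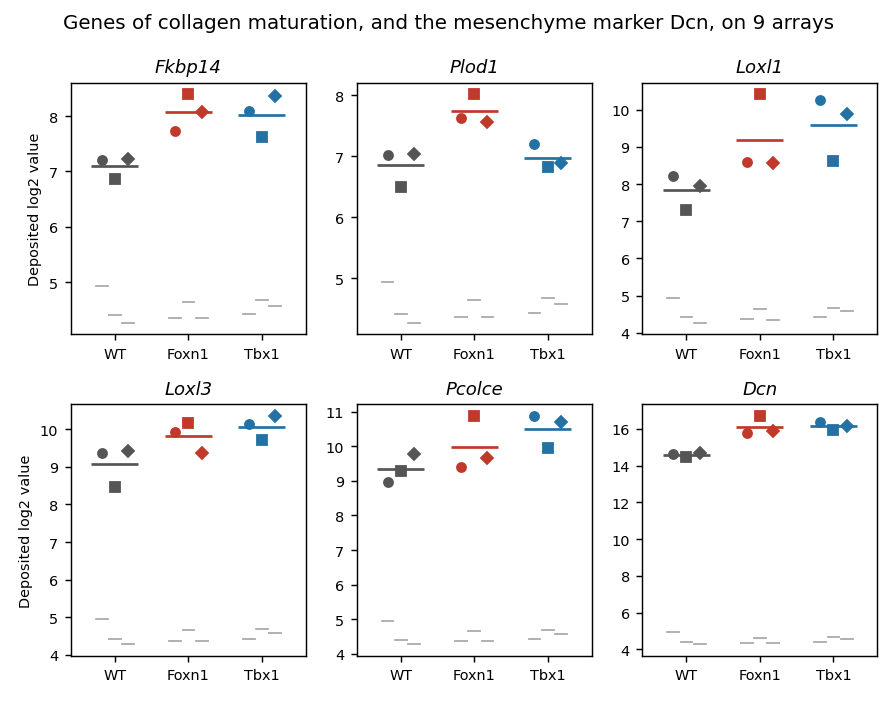
Log2 values of genes for collagen folding, trimming and cross-linking, and of the mesenchyme marker Dcn, on each array, by genotype. Points are arrays, with circle, square and diamond for replicates 1, 2 and 3, horizontal lines are means of 3, grey ticks are negative control medians, and the y axes differ between panels. All 6 mutant points of Fkbp14 and Loxl1 lie above the 3 wild type points, and Plod1 is apart in the Foxn1 mutant.

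Markers of cell types that make collagen are given beside these values, and their part in the differences was not tested. The mean of 10 measured mesenchyme markers was 8.43 to 8.93 in wild type, 8.80 to 9.86 in the Foxn1 mutant and 8.81 to 9.25 in the Tbx1 mutant, with 8 or 9 of the 10 above background on each array. Foxn1 mutant replicates 1 and 3 averaged 8.80 and 8.84, within the wild type range, and replicate 2 averaged 9.86. Of the 10, 10 had a higher mean in the Foxn1 mutant and 9 in the Tbx1 mutant, where Prrx1 differed by -0.73. The Foxn1 difference was -0.43 for Prrx1 without Foxn1 mutant replicate 2, and -0.49 for Pdgfrb without wild type replicate 1. For Lum, Tcf21 and Twist1 it stayed positive whichever array was left out. Dcn, a small proteoglycan that binds type I collagen fibrils, read 14.61, 14.48 and 14.69 in wild type, 15.80, 16.71 and 15.87 in Foxn1 mutants, and 16.37, 15.92 and 16.17 in Tbx1 mutants. All mutant arrays were above wild type, by 1.53 ± 0.27 (SE) and 1.56 ± 0.27 on average. Its adjusted p in limma was 1.00 and 0.213. The means of 8 endothelial markers were 7.57 to 8.16, 7.88 to 8.37 and 8.02 to 8.34 in the same order.

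Markers of cartilage, bone, muscle and blood were read in the same way. Of 11 cartilage markers, 3 to 5 were above background per array, and Matn1, Matn3, Ucma and Snorc were on none. The list mean was 4.18 to 4.63 in wild type, 4.21 to 4.87 in the Foxn1 mutant and 4.39 to 4.51 in the Tbx1 mutant. Sox9, a regulator of cartilage formation that other tissues also express, read 9.37 on Foxn1 mutant replicate 2 and 6.35 to 7.27 elsewhere. Of 4 measured bone markers only Ibsp was above background on any array, and it was so on no Tbx1 mutant array. With the negative control medians of those arrays in place of its values there, wild type was at least 8.45-fold higher than the Tbx1 mutant, with an adjusted p of 0.472 in limma. Skeletal muscle markers, 6 in all, averaged 10.04 for wild type replicate 2, with 4.90 to 7.14 for the rest. Red cell markers averaged 14.33, 11.62 and 14.62 in wild type embryos, with 10.99 to 12.55 for the Foxn1 and 10.85 to 12.33 for the Tbx1 mutants. Thymic epithelium markers averaged 6.78 on wild type replicate 1 and 7.06 on Foxn1 mutant replicate 2, against 10.39 to 11.15 on the others. The leukocyte markers were at 4.72 and 4.31 on the same arrays, against 8.56 to 10.50.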

How the data were processed

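The deposited values are log2 signals per transcript cluster, as the authors' array export held them. The sources used here do not state the normalization, the software or the genome build. Of 28846 features, 6640 controls were left out of the tests, and 5222 negative controls set the background. Names came from the platform annotation: 19572 of 22206 clusters had a symbol. A linear model with a term per genotype over all 9 arrays was fitted with limma 3.58.1 in R 4.3.3, with empirical Bayes moderation and Benjamini-Hochberg adjustment over all 22206 clusters, and was tested on simulated data. Replicates were numbered in accession order, so the numbers pair nothing. Above background means above an array's negative control median. Genes named are Col1a1, Col3a1 and Col6a3, collagens at an unadjusted p of 0.05 or lower, partner chains, at least 3 of lowest F-test p per class, and up to 4 of lowest p per related list. The collagen genes, classes, lists and rules were chosen with earlier results of these data known. Alternatives were other normalizations, a filter on low values, other variance models, date code blocks, only the groups compared, and each array left out. Precision is limited by the number of arrays.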

Additional observations from a re-analysis of the deposited data

How the results depend on the processing

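No collagen gene passed the adjusted threshold in limma in any of the 3 comparisons under any of 17 settings beside the one reported. Of the summary values recomputed, 101 kept their count or moved by less than the spread between arrays of a genotype, and 1 moved further. The 1 was the median of Foxn1 minus Tbx1 mutant, which was -0.14 and became 0.11 with the date code as a fixed block. Only code A holds arrays of both mutants, Foxn1 mutant replicate 2 and Tbx1 mutant replicate 1. Without Foxn1 mutant replicate 2, and with no block, that median was -0.25. The cause of the change was not tested. The counts were of genes passing, with none in any setting. The spread was 0.20, against medians of 0.20, 0.27 and -0.14, so a median could lose much of its size and still be tallied as kept. Leaving out each array in turn gave medians of 0.07 to 0.34 for Foxn1 minus wild type, 0.19 to 0.31 for Tbx1 minus wild type and -0.25 to -0.01 for Foxn1 minus Tbx1 mutant. No single gene was called, so no call could be lost, but signs did turn: with the fixed block 38, 38 and 29 of the 42 genes kept theirs in the 3 comparisons, in that order, and 23, 30 and 22 kept theirs whichever array was left out. The filter on clusters of low mean kept 37 of the 42 genes. The lowest-mean cluster per symbol gave no other values, since no symbol had several clusters. The fit that omits both arrays with low thymic epithelial values and the left-out arrays for genes of the related lists were chosen after seeing the data. No paired analysis was possible because the labels give no replicate numbers shared between genotypes. The title codes, which some arrays of different genotypes do share, served as the block instead. For the 7 genes with signals below the negative control median on all arrays, not even a bound could be given. Their measured differences still enter the counts and medians.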
